A study of Homo sapiens with 6 samples.

Results

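The miRNAs described here were hsa-miR-146a-5p, hsa-miR-146b-5p, hsa-miR-146b-3p and hsa-miR-155-5p. They were taken by name from the deposited counts as miRNAs linked to the transcription factor NF-κB, and they are 4 of the 2588 mature miRNAs counted. Small RNA was sequenced from A549, a line derived from a human lung adenocarcinoma, and from BEAS-2B, a line of human bronchial epithelium made immortal with viral genes. Both lines are labelled as wild type. Each line was either left untreated as a control or given TGF-β1, a cytokine used to induce the transition of epithelial to mesenchymal cells, at 1 or 5 ng/mL for 48 h. Per the labels, TGF-β1 was given in medium with less serum than the growth medium, and they do not state the serum of the controls separately. There was 1 library for each line and dose, 6 in all, so no value has a replicate error, no test of treatment was made and no p-value is given. The 95% intervals are exact binomial intervals that cover counting error only. Since no molecular identifiers are mentioned, reads cannot be taken as independent molecules. The intervals may thus be too narrow even for counting error.

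Members of the miR-146 and miR-155 families are made in response to inflammatory signals in many cell types. Toll-like receptors and the receptors for interleukin-1 and tumour necrosis factor activate NF-κB, which raises transcription of the precursors of miR-146a and miR-155. miR-146a and miR-146b lower the adaptor proteins TRAF6 and IRAK1 upstream of NF-κB, and so act as a brake. miR-155, made from the BIC transcript, lowers inhibitors of cytokine signalling such as SOCS1 and is best known from activated immune cells. TGF-β signalling has also been described as raising miR-155 in mouse mammary epithelial cells.

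The mature sequences show which members could act on the same targets, since a miRNA pairs with its targets mainly through the seed, bases 2 to 8 from the 5′ end. They were read from RefSeq (GRCh38.p14), where all 4 members matched by name, and the seed is in capitals.
hsa-miR-146a-5p: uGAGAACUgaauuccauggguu
hsa-miR-146b-5p: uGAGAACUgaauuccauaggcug
hsa-miR-146b-3p: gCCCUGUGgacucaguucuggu
hsa-miR-155-5p: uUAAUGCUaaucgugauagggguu

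The 5p arms of miR-146a and miR-146b shared a seed and their first 17 bases. Counted from base 1 at the 5′ end of miR-146a-5p, the substitutions were G18A and U21C, and miR-146b-5p had 1 more base at its 3′ end. Reads trimmed short of base 18 would fit both, and how the authors assigned such reads was not stated, so the split between them is uncertain. Among the 2281 miRNAs whose names matched a RefSeq mature sequence, 1 other carried this seed, hsa-miR-7153-5p, which had at most 1 count in a library. No other of these miRNAs carried the seed of miR-155-5p or of miR-146b-3p.

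The hairpins show where both arms lie in each precursor. They are given as DNA from GENCODE release 29 on GRCh38, on the plus strand, with the mature arms in capitals, 5p first.
MIR146A: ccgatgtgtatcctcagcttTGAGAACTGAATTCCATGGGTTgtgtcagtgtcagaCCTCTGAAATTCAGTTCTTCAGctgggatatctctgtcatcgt
MIR146B: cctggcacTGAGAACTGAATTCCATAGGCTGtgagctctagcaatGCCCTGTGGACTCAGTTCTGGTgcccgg
MIR155: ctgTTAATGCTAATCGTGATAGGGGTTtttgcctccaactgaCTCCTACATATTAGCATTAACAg

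MIR146A lies at chr5:160485352-160485450, within an exon of the long non-coding RNA MIR3142HG. MIR155 lies at chr21:25573980-25574044, within an exon of the long non-coding RNA MIR155HG, the BIC transcript. MIR146B lies at chr10:102436512-102436584 and overlapped no other annotated gene. Its nearest protein-coding gene was CUEDC2, 3851 bases away. The 3 precursors are thus on separate chromosomes, and the members do not form a transcribed cluster.

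Total counts ranged from 633318 to 900424 per library, and a count of 0 allows up to 3 counts, or a CPM (count per 1e+06 reads) of 3.33 to 4.74. Counts were scaled by the trimmed mean of M-values (TMM) over all 6 libraries. The TMM factor was 1.32 in the BEAS-2B control and between 0.829 and 1.02 elsewhere, and hsa-miR-21-5p took 35.4% of the reads in the BEAS-2B control against 47.6% to 57.2% in the other libraries. Levels are given as ND, the log2 of the normalised count plus 1. A difference passed the criteria where the greater of 2 libraries reached an ND of 8 and the fold change reached 1.4. An ND of 8 is a normalised count of 255, and 157 miRNAs reached it in at least 1 library. Of the 4 members, 3 did so, and hsa-miR-146b-3p did not. Of 6 miRNAs typical of epithelial cells, 4 or 5 exceeded 3 counts in each library, with summed counts of 219 to 384 in A549 and 297 to 472 in BEAS-2B cells. Among them, hsa-miR-205-5p had 0 to 2 counts and hsa-miR-141-3p had 1 to 8. hsa-miR-200c-3p had 35 to 38 in A549 but 6 to 12 in BEAS-2B cells. Of these 6, hsa-miR-200b-3p had the largest count in each library, 139 to 271 in A549 and 237 to 356 in BEAS-2B cells.

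The level of the 5p members differed most by cell line. In A549 cells, hsa-miR-146a-5p had 255 counts without TGF-β1, 193 with the lower dose and 160 with the higher dose. The BEAS-2B counts were 6168, 3950 and 4760 in the same order. All 3 BEAS-2B libraries were above all 3 A549 libraries, as for 23.6% of the 157 miRNAs reaching an ND of 8 in a library. miR-146a-5p ranked from 18 to 19 by count in BEAS-2B and from 118 to 145 in A549 libraries.

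The same order held for hsa-miR-146b-5p at a lower level. Ordered by dose, it had 77, 60 and 55 counts in A549 cells, whereas BEAS-2B cells gave 897, 590 and 657. The BEAS-2B libraries were again all above those of A549 cells, as for 23.6% of the 157 miRNAs. The ND lay between 9.33 and 9.43 in BEAS-2B cells and between 5.94 and 6.34 in A549 cells.

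hsa-miR-155-5p was near 0 in A549 cells, with 0, 1 and 2 counts at 0, 1 and 5 ng/mL. In BEAS-2B cells, it had 2874, 1390 and 1666 counts and ranked between 29 and 35. Every A549 value was at or under the 3 counts that a count of 0 allows, so no fold change within A549 cells is given. Of the 100 miRNAs that reached an ND of 8 in all 3 BEAS-2B libraries, miR-155-5p was the 1 miRNA with 3 counts or fewer in every A549 library. These miRNAs were chosen by their level in BEAS-2B cells, where miR-155-5p was high. The reverse count, of miRNAs high in A549 and near 0 in BEAS-2B cells, was not made.

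The 3p arm hsa-miR-146b-3p, which comes from the same hairpin as miR-146b-5p, was near the limit throughout. Its counts by dose were 2, 0 and 1 in A549 cells, against 4, 0 and 1 in BEAS-2B. The BEAS-2B control was the 1 library above 3 counts. At this depth, no difference between lines or doses was detectable.

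**Figure D1:**
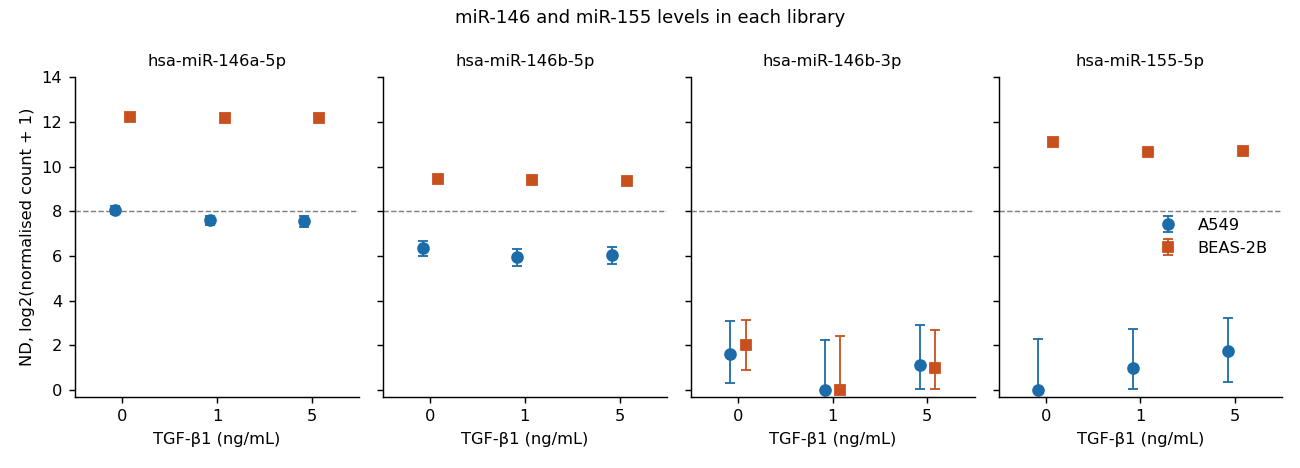
ND, log2(normalised count + 1), of each member by TGF-β1 dose in A549 (circles) and BEAS-2B cells (squares), 1 library per point, with 95% counting intervals as bars and the ND criterion of 8 as a dashed line. The 5p members are higher in all 3 BEAS-2B libraries, as are 23.6% of the 157 miRNAs reaching an ND of 8 in a library. hsa-miR-155-5p lies at 0 to 2 counts in A549 cells, and hsa-miR-146b-3p is near 0 in both lines.

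The comparison of A549 with BEAS-2B cells at the same dose gave the size of this difference. The normalised count of miR-146a-5p in BEAS-2B over A549 cells was 17.9-fold in the controls (95% interval 15.8 to 20.3), 23.6-fold at 1 ng/mL (20.4 to 27.4) and 25.1-fold at 5 ng/mL (21.4 to 29.5). For miR-146b-5p, the ratio was 8.61-fold (6.82 to 11.0), 11.3-fold (8.68 to 15.0) and 10.1-fold (7.64 to 13.5), respectively. For miR-155-5p, the control ratio was at least 708-fold by the limit of 3 counts for the 0 counts of the A549 control, a bound made in another way than the intervals at the other doses. The exact interval for the controls ended at a log2 ratio of A549 to BEAS-2B cells of -9.17, a smaller difference than that bound. At 1 ng/mL, with 1 count in A549 cells, the ratio of miR-155-5p without a pseudocount was 1603 with an interval of 287 to 63352. At 5 ng/mL, with 2 counts, it was 702 with an interval of 194 to 5799. These intervals were wide because of the 1 or 2 counts in A549 cells, and the size of the ratio should be read only within them. With a pseudocount of 1, the log2 ratio of A549 to BEAS-2B cells was -9.65 at 1 ng/mL and -8.94 at 5 ng/mL.

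At each dose, 3 of the 4 members met the ND criterion, and all 3 passed as lower in A549 cells. miR-146b-5p and miR-155-5p reached an ND of 8 in BEAS-2B cells only, as did miR-146a-5p at 1 and 5 ng/mL. Where the ND criterion was met only through BEAS-2B cells, this was the only direction that could pass. Over all miRNAs that met the ND criterion, the share that passed in either direction was 68.9% in the controls, 64.3% at 1 ng/mL and 67.8% at 5 ng/mL. A difference past 1.4-fold between these lines was therefore common, and the count of members says little of them. By mean ND over the 3 doses, miR-155-5p, miR-146a-5p and miR-146b-5p ranked 1, 2 and 3 of 157 miRNAs for BEAS-2B minus A549, with differences of 9.90, 4.45 and 3.29. By size in either direction, they ranked 1, 10 and 13, since 8 miRNAs were higher in A549 cells by more than 4.45. miR-155-5p and miR-146b-5p entered the 157 only through BEAS-2B cells, so that choice favoured a positive difference for them. Among miRNAs higher in BEAS-2B cells, the next was hsa-miR-3613-5p at 2.54, and the median of the 157 was -0.18. The ranks for BEAS-2B minus A549 were the same with pseudocounts of 0.5 and 10. They were also the same under each of 5 other scalings. A scaling shifts the difference of all miRNAs nearly alike, so that agreement is no check of the ranks. The difference of miR-155-5p depends on the pseudocount, from 7.35 with 10 to 10.4 with 0.5. All 3 A549 libraries were below all 3 BEAS-2B libraries for 23.6% of the 157 miRNAs, these 3 included.

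**Figure D2:**
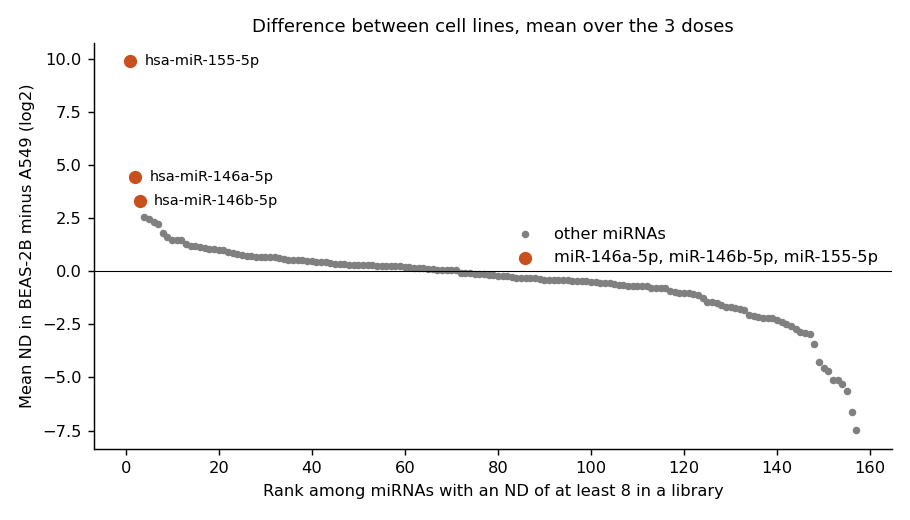
Mean ND in BEAS-2B minus A549 cells over the 3 doses (y axis, log2) for the 157 miRNAs reaching an ND of 8 in a library, ordered by rank (x axis). hsa-miR-155-5p, hsa-miR-146a-5p and hsa-miR-146b-5p take ranks 1 to 3, at 9.90, 4.45 and 3.29, and the next miRNA is at 2.54. By size in either direction they rank 1, 10 and 13. hsa-miR-155-5p and hsa-miR-146b-5p reach an ND of 8 only in BEAS-2B cells, which favours a positive difference.

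As a check of the labelled cell types, 5 miRNAs typical of blood cells were read in the same libraries. By dose, these summed to 9, 2 and 0 counts in A549 cells, whereas the BEAS-2B sums were 4, 4 and 1. hsa-miR-223-3p, typical of myeloid cells, was at 0 in all 6 libraries. The endothelial miRNA hsa-miR-126-3p had 1003 to 1280 counts in A549 and 197 to 393 in BEAS-2B cells, opposite in order to the members. The part of other cell types in the members' levels was not tested.

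The treatment comparisons asked whether the members changed after TGF-β1. In A549 cells at 5 ng/mL, miR-146a-5p fell from 255 to 160 counts, a log2 ratio of -0.51 (95% interval -0.81 to -0.22) or 1.42-fold, just past the criterion. It was the only 1 of the 4 members that met the ND criterion there. It passed, as did 53.2% of all miRNAs meeting that criterion, in either direction. Of these miRNAs, 24.1% had a lower log2 ratio than miR-146a-5p. At 1 ng/mL, its log2 ratio was -0.45 (-0.73 to -0.18), short of 1.4-fold. It was again the only member that met the ND criterion, so 0 of 1 passed against a background of 48.9%. Both doses were set against the same control library, so the values at 1 and 5 ng/mL are not independent of each other. The call at 5 ng/mL rested on values near both thresholds, since the control ND was 8.06, and 3 of the 7 scalings kept it. It was lost under total-count scaling, where the log2 ratio was -0.35. It was also lost with TMM within each line (-0.58), TMM from miRNAs with a mean count of at least 10 (-0.63) and totals without miR-21-5p (-0.51), where the control ND was below 8.

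For miR-146b-5p in A549 cells, which stayed below an ND of 8, the lower dose gave a log2 ratio of -0.41 (-0.92 to 0.09) and the higher dose one of -0.32 (-0.85 to 0.19). Both intervals included 0. The log2 ratio was negative under all 7 scalings at both doses, and the interval at 1 ng/mL excluded 0 under total-count scaling (-1.06 to -0.04) and, narrowly, with DESeq2 size factors. A rule for low counts, a mean normalised count of at least 10 and an interval wholly beyond 1.4-fold, was met by 28.8% of miRNAs at 5 ng/mL and 20.2% at 1 ng/mL. Of the members, miR-146a-5p and miR-146b-5p had the mean it required, and 0 met it.

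In BEAS-2B cells, the miR-146 5p arms differed little from the control after TMM scaling. The normalised count of miR-146a-5p was 4745 without TGF-β1, 4573 with the lower dose and 4667 with the higher dose. These gave log2 ratios to control of -0.05 (-0.11 to 0.01) and -0.02 (-0.08 to 0.03). The normalised count of miR-146b-5p was 690, 683 and 644, and its log2 ratio was -0.01 (-0.17 to 0.14) and -0.10 (-0.25 to 0.05), respectively. Under this scaling, none of the 3 libraries stood apart for either miRNA beyond counting error.

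In contrast, miR-155-5p was lower in both treated BEAS-2B libraries than in the control beyond counting error, but short of 1.4-fold. It had a normalised count of 2211 without TGF-β1, 1609 with the lower dose and 1633 with the higher dose. The lower dose gave a log2 ratio of -0.46 (-0.55 to -0.36), and the higher dose one of -0.44 (-0.53 to -0.35). Among the miRNAs that met the ND criterion, 14.2% and 19.2% had a lower log2 ratio, respectively. Of the 3 members that met the ND criterion, 0 passed at either dose. The background was 29.2% for the lower dose and 36.0% for the higher dose.

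How the BEAS-2B control was scaled changed these values. Under total-count scaling, the log2 ratios at 5 ng/mL were -0.43 for miR-146a-5p, -0.51 for miR-146b-5p and -0.85 for miR-155-5p, so that the last 2 passed the criteria, where 59.4% of all miRNAs meeting the ND criterion under that scaling passed, most of them lower. When hsa-miR-21-5p was left out of the totals, they were 0.16, 0.08 and -0.26. The sign of both miR-146 5p arms at 5 ng/mL, and of miR-146b-5p at 1 ng/mL, thus flipped with the scaling, and that of miR-155-5p was negative under all 7 scalings at both doses. Total-count scaling moved the median log2 ratio of all 125 miRNAs that met the ND criterion at 5 ng/mL from -0.08 to -0.49. A scaling shifts all miRNAs of a comparison alike, so the distance from the median does not depend on it. That distance was -0.35 at 5 ng/mL and -0.42 at 1 ng/mL for miR-155-5p, and 0.06 and -0.02 for miR-146a-5p.

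**Figure D3:**
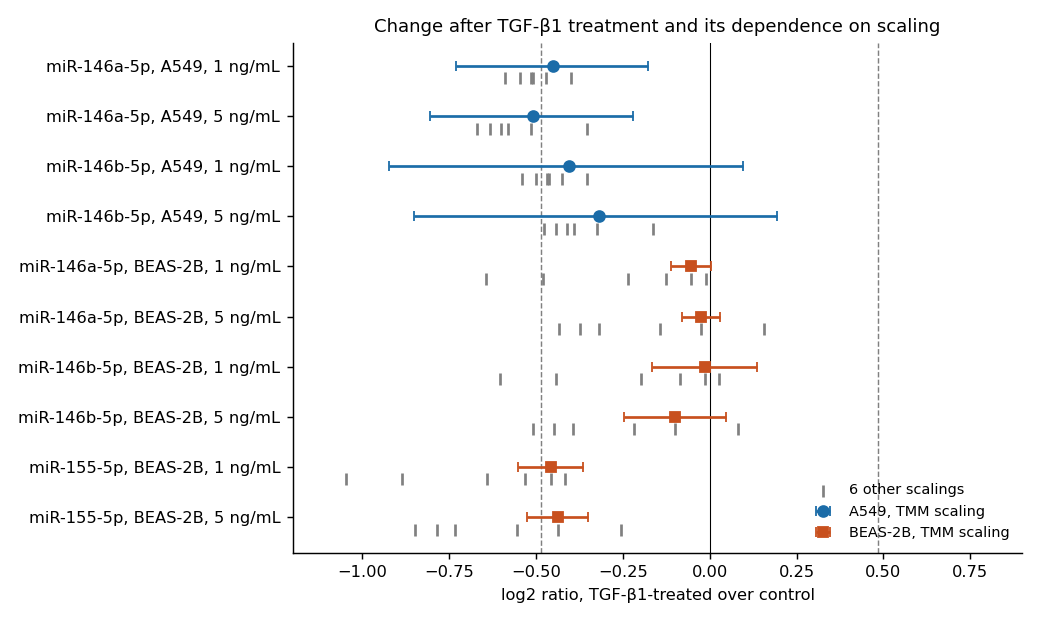
log2 ratio of TGF-β1-treated to control libraries (x axis) for each 5p member, cell line and dose with enough counts, with 95% counting intervals under TMM scaling and the values under 6 other scalings as grey ticks; dashed lines mark 1.4-fold. In BEAS-2B cells, hsa-miR-155-5p lies below 0 under each scaling shown, whereas the miR-146 arms in BEAS-2B cells span 0 at 5 ng/mL.

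The doses were also compared with each other. Between 5 and 1 ng/mL in BEAS-2B cells, the log2 ratio was 0.03 (-0.03 to 0.09) for miR-146a-5p, -0.08 (-0.25 to 0.08) for miR-146b-5p and 0.02 (-0.08 to 0.12) for miR-155-5p. Of the 3 members that met the ND criterion, 0 passed, against 6.61% of all miRNAs meeting it. In A549 cells, the values were -0.06 (-0.37 to 0.25) for miR-146a-5p and 0.09 (-0.47 to 0.64) for miR-146b-5p. None of the members met the ND criterion there, where 16.9% of the miRNAs that did passed. By the rule for low counts, 0 of the 2 members with the mean it required passed, against 3.99%. Every one of these intervals under TMM included 0. Under other scalings in BEAS-2B cells, the log2 ratio ranged from -0.08 to 0.27 for miR-146a-5p, from -0.20 to 0.15 for miR-146b-5p and from -0.09 to 0.26 for miR-155-5p. The interval included 0 under 4, 6 and 5 of the 7 scalings, respectively. In A549 cells, it included 0 under all 7 scalings for both miR-146 5p arms, whose sign also flipped.

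Ratios between members of the same library need no scaling. The share of miR-146a-5p in the pooled reads of miR-146a-5p and miR-146b-5p was 76.8% (71.9 to 81.2) in the A549 control, 76.3% (70.6 to 81.4) with the lower dose and 74.4% (68.0 to 80.1) with the higher dose. The BEAS-2B shares were 87.3% (86.5 to 88.1), 87.0% (86.0 to 88.0) and 87.9% (87.0 to 88.7). The share was higher in each BEAS-2B library than in any A549 library, and the intervals did not overlap. It differed within counting error between doses in each line. On the log2 scale, the A549 to BEAS-2B ratio of miR-146b-5p exceeded that of miR-146a-5p by 1.05 (0.65 to 1.44) in the controls, 1.06 (0.60 to 1.50) under the lower dose and 1.32 (0.83 to 1.78) under the higher dose. The mature forms are 22 and 23 bases long, so no length correction was made. Because adapters ligate unequally to different ends, a share of reads is not a share of molecules.

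The balance between miR-155-5p and miR-146a-5p differed between the control and both treated libraries of BEAS-2B cells. Both doses were set against the same control library, so their values are not independent of each other. An effect of treatment cannot be told apart from a trait of that library. miR-155-5p took 31.8% (30.8 to 32.8) of the pooled reads of the pair in the control, 26.0% (24.9 to 27.2) with the lower dose and 25.9% (24.9 to 27.0) with the higher dose. The control stood above both treated libraries, which overlapped with each other. The log2 ratio to control of miR-155-5p less that of miR-146a-5p was -0.41 at both doses, with intervals of the difference of -0.52 to -0.31 for 5 ng/mL and of -0.52 to -0.30 for 1 ng/mL. Against miR-146b-5p, the difference was -0.34 (-0.51 to -0.17) and -0.44 (-0.62 to -0.26), respectively. Between miR-146b-5p and miR-146a-5p, it was -0.08 (-0.23 to 0.08) and 0.04 (-0.12 to 0.20). In A549 cells, miR-155-5p took 0%, 0.52% and 1.23% of the reads of the pair, and the control count of 0 allows a share of up to 1.18% by the 3-count limit and 1.44% by the exact interval.

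**Figure D4:**
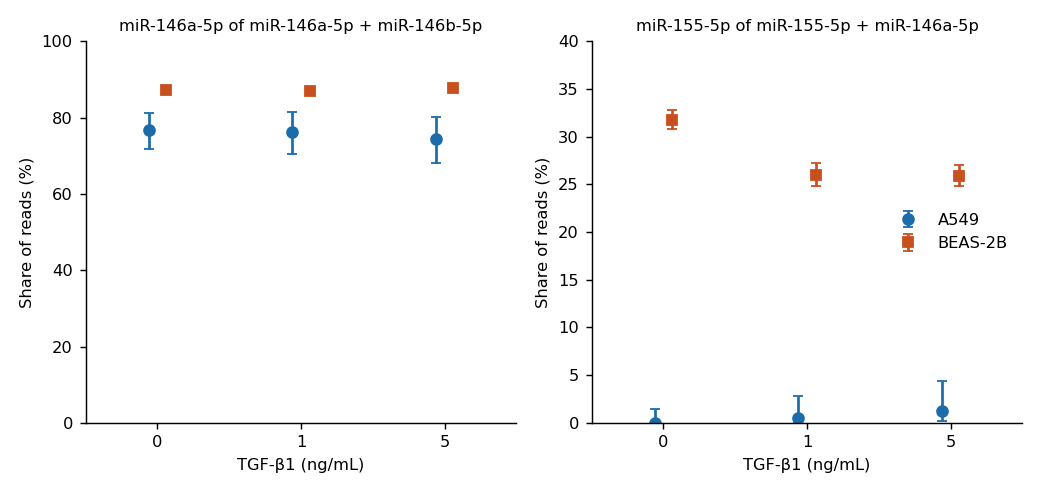
Share of reads (y axis, percent) of miR-146a-5p among miR-146a-5p and miR-146b-5p (left) and of miR-155-5p among miR-155-5p and miR-146a-5p (right), by TGF-β1 dose in A549 (circles) and BEAS-2B cells (squares), with exact 95% intervals. The left share is near 87% in BEAS-2B and 74% to 77% in A549 cells, and the right share in BEAS-2B cells is 31.8% in the control and about 26% at both doses.

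In BEAS-2B cells, all 3 precursors gave reads mainly from the 5p arm. In A549 cells this held for miR-146a and miR-146b, and miR-155 had too few counts to tell. hsa-miR-146b-3p made up 0.44% (0.12 to 1.13) of the reads of both arms of miR-146b in the BEAS-2B control and 0.15% (0.0038 to 0.84) at 5 ng/mL. At 1 ng/mL it had 0 of 590 reads, which allows a share of up to 0.51% by the 3-count limit and 0.62% by the exact interval. In A549 cells, it was 2.53% (0.31 to 8.85) in the control and 1.79% (0.045 to 9.55) at 5 ng/mL, with intervals that overlapped those of BEAS-2B cells. The opposite arm hsa-miR-146a-3p had 10, 8 and 6 counts in BEAS-2B cells, from 0.13% to 0.20% of the reads of its hairpin, and 0, 2 and 0 in A549 cells. hsa-miR-155-3p had 2, 0 and 1 counts in BEAS-2B cells and 0 in each A549 library.

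The miRNAs whose ND followed the members most closely over the 6 libraries were named by Pearson's r among 156 others that reached an ND of 8 in a library. For miR-146a-5p, these were miR-146b-5p (r = 0.9996), hsa-miR-152-3p (0.993) and hsa-miR-574-5p (0.989). For miR-146b-5p, they were miR-146a-5p, miR-152-3p (0.993) and hsa-let-7b-5p (0.991), and for miR-155-5p they were miR-152-3p (0.989), miR-146b-5p (0.986) and miR-574-5p (0.986). The 6 libraries fall into 3 of each line, so these values mostly describe the difference between the lines. Since some reads could fit both miR-146 5p arms, the levels of these arms may not be separate measures. For each 5p member of miR-146, 16 miRNAs had an r over 0.95.

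A list of 14 other miRNAs tied to NF-κB and Toll-like receptor signalling was read beside the members. It held 9 described as raised by inflammatory signals and 5 described as targeting parts of the pathway. In BEAS-2B cells at 5 ng/mL, 5 of the 14 met the ND criterion, 2 passed as higher and 1 as lower, beside the background of 36.0%, with a median log2 ratio of -0.14 against -0.08 over all miRNAs that met the criterion. In A549 cells at 5 ng/mL, 6 met it, 2 were higher and 1 lower, beside 53.2%, with a median of -0.11 against -0.03. At 1 ng/mL, the same numbers met the criterion and passed in each direction, beside backgrounds of 29.2% in BEAS-2B and 48.9% in A549 cells, with a median of 0.15 against -0.04 in BEAS-2B and of 0.18 against -0.11 in A549 cells. Counts of this size do not set the list apart from other miRNAs. hsa-miR-181b-5p, described as lowering the importin that carries NF-κB into the nucleus, rose in both lines at 5 ng/mL, with a log2 ratio of 1.49 for A549 cells and of 1.51 for BEAS-2B cells. hsa-miR-10a-5p, described as lowering kinases and ligase components that activate NF-κB, fell in both at that dose, by 0.73 and by 1.12 on the log2 scale. hsa-miR-125b-5p rose in A549 cells at 1 ng/mL (0.56) and 5 ng/mL (0.68), and its BEAS-2B log2 ratios were 0.09 and -0.23. hsa-miR-21-5p rose in BEAS-2B cells at 1 ng/mL (1.02) and 5 ng/mL (1.10), and its A549 log2 ratios were 0.23 and -0.32. The log2 ratios of the list are given under TMM scaling only. Another scaling of the BEAS-2B control would shift them as it shifts those of the members.

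miRNAs typical of smooth muscle cells and fibroblasts differed between the control and the treated libraries in both lines. The summed count of hsa-miR-143-3p and hsa-miR-145-5p by dose was 153, 1728 and 1154 in A549 cells, compared with 7, 67 and 106 in BEAS-2B, with miR-145-5p at 0 in the BEAS-2B control. Their part in the values of the miR-146 and miR-155 members was not tested. In the BEAS-2B control, which sets every treatment ratio in that line, the lower share of miR-21-5p and the higher TMM factor moved together with the higher raw counts of all 3 5p members, and their part in those counts was not tested beyond the scalings given.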

How the data were processed

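Small RNA libraries were made from TRIzol-extracted total RNA with a small RNA kit. The authors deposited raw counts of reads for each mature miRNA, with no normalisation by the authors, in 1 file per library. The submitters' processing notes name Bowtie2 and bedtools; versions, genome build, miRNA annotation and use of strand are not given in the sources used here. Groups came from the sample titles. TMM factors were computed with edgeR 4.0.16 in R 4.3.3, and counts were divided by effective library size and multiplied by its mean, 749498. The pseudocount was 1 for ND and for the log2 ratio of a miRNA, and the fold ratios of BEAS-2B over A549 cells used none. Intervals of ratios were exact Clopper-Pearson intervals of 1 library's share of the 2 counts, converted with the effective library sizes, and differences between 2 miRNAs used the exact conditional interval of the odds ratio. No p-value was computed. Ranks of the line difference, the share of miR-155-5p against miR-146a-5p and differences between members were added after the data were seen. The members, lists and rules were chosen with earlier results of these data known. Named miRNAs were the members, their opposite arms, miRNAs sharing a seed, the NF-κB list, the cell type markers and the 3 with the highest r per member; miR-3613-5p was named after its values were seen. Alternatives were DESeq2 1.42.0 size factors, total counts with and without miR-21-5p, TMM within each line, TMM on miRNAs with a mean count of at least 10, no scaling, pseudocounts of 0.5 and 10, ND thresholds of 7 and 9, an ND of 8 required of both libraries, a fold change of 2 and an interval beyond 1.4-fold. Python 3.11.15 and scipy 1.17.1 were used, and the procedure was tested on simulated data.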

Additional observations from a re-analysis of the deposited data

How the results depend on the processing

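With 1 library per group, no replicate was left out, and no paired analysis was possible because the labels give no replicate numbers. Of 183 log2 ratios of members recomputed under the alternatives, 140 stayed within their counting interval and 43 moved beyond it; 0 that had passed the criteria changed sign. In the comparisons of A549 with BEAS-2B cells, 3 members passed under each alternative except an ND of at least 8 in both libraries, which left 1 in the controls and 0 at 1 and at 5 ng/mL, because A549 levels were below it. In A549 cells at 5 ng/mL, the count of 1 became 0 under total-count scaling with and without hsa-miR-21-5p, TMM within each cell line, TMM from miRNAs with a mean count of at least 10, an ND of at least 9 or of 8 in both libraries, a fold criterion of 2 and an interval wholly beyond 1.4-fold. In A549 cells at 1 ng/mL, DESeq2 size factors gave 1 in place of 0. In BEAS-2B cells, the count of 0 became 1 with DESeq2 size factors and with TMM from miRNAs with a mean count of at least 10 at both doses, 1 at 1 ng/mL and 2 at 5 ng/mL under total-count scaling, and 3 at 1 ng/mL and 1 at 5 ng/mL without scaling. The share of all miRNAs passing there rose as well, from 29.2% at 1 ng/mL and 36.0% at 5 ng/mL to 31.7% and 42.4% with DESeq2 size factors, 32.3% and 53.0% with the filtered TMM, 53.8% and 59.4% under total-count scaling and 68.2% and 55.6% without scaling. The log2 ratio of miR-155-5p in BEAS-2B cells ranged from -0.85 to -0.26 at 5 ng/mL and from -1.05 to -0.42 at 1 ng/mL over the 7 scalings, and why the scalings differ was not tested. Wilson intervals were also computed for shares of reads, but they cannot change a share itself and so are no check of it. Counts of 3 or fewer limit what can be said of miR-146b-3p and of miR-155-5p in A549 cells.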

Other observations

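Among the other miRNAs described as raised by inflammatory signals, hsa-miR-9-5p had the opposite order between the lines to miR-146 and miR-155. It had 447, 484 and 314 counts in A549 and 8 in each BEAS-2B library, and its log2 ratio of A549 to BEAS-2B cells in the controls was 6.03 (95% interval 5.25 to 7.46). Its opposite arm hsa-miR-9-3p had 31, 14 and 15 counts in A549 cells, against 0, 1 and 0 in BEAS-2B. Between the controls, 6 of the 14 listed miRNAs met the ND criterion, 4 were higher and 1, hsa-miR-125b-5p, lower in A549 cells. Over all miRNAs that met the criterion, 68.9% passed, 55 higher and 38 lower in A549 cells, so these counts do not set the list apart.

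Of the remaining miRNAs on the list, hsa-miR-147b, which is raised through Toll-like receptors in macrophages, had 37, 49 and 40 counts in A549 cells, against 56, 18 and 35 in BEAS-2B. Its log2 ratio in BEAS-2B cells was -1.01 (-1.90 to -0.26) with the lower dose and -0.32 (-0.98 to 0.31) with the higher dose, below an ND of 8 throughout. hsa-miR-132-3p had 57, 73 and 67 counts in A549 cells, against 40, 23 and 32 in BEAS-2B, and its intervals against control included no change in both lines.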
